A study of Gallus gallus with 2 samples.

Results

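Homeobox transcription factors were followed in the brains of newly hatched chicks that had been trained in filial imprinting, the early learning by which a chick comes to follow a conspicuous object. Members were the array probes, controls aside, whose description contains the word homeobox or homeodomain, or whose gene name is of the HOX, DLX, LHX or NKX type or, like SIX3, of the sine oculis type. Probes placed on the sex chromosome Z were left out. The rule took 109 of 42034 probes, 95 by their description and 14 by name alone, and left out 1 probe on chromosome Z, that of the LIM homeobox gene ISL1. Of these, 94 probes measured 87 named homeobox genes and 11 measured transcript clusters known only by their similarity to a homeodomain protein. The remaining 4 probes measured HIPK1, HIPK2 and PHTF2, which the text of the rule takes in although the first 2 are protein kinases that bind homeodomain proteins and PHTF2 is only described as a putative homeodomain factor.

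Female and male Cobb chicks trained for 1 h were compared with female and male chicks reared in the dark, with 16 chicks per condition. Total RNA was taken from whole brains and combined into 4 pools of 8 chicks by sex and condition. A 2-colour array was hybridised per sex, with Cy3 on the trained RNA and Cy5 on the dark-reared RNA. The dark-reared pools were the only comparison group, so learning cannot be told apart from exposure to light or from other parts of the session, and without a dye swap a dye effect of a probe cannot be told apart from training.

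Homeodomain proteins bind DNA through a conserved helical domain and give cells of the embryonic nervous system their position and type along the body. In the forebrain, LIM and EMX factors pattern the pallium, whereas DLX, NKX and LHX factors of the subpallium specify GABA and cholinergic neurons. HOX genes lie in clusters and pattern the hindbrain and spinal cord, behind the parts of the brain that give rise to the forebrain. Many of these factors stay on in mature neurons of the region they specified, so their transcripts serve as regional landmarks in whole-brain RNA.

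A probe was called detected in a pool when the scanner software marked it as well above background there. Among all probes this held for 62.9% in the female trained, 61.5% in the male trained, 66.5% in the female dark-reared and 66.4% in the male dark-reared pool, and none was saturated. Levels are normalized log2 signals of single probes, which can be compared between pools but not between probes. Each array gives a log2 ratio, trained over dark-reared, and the number of arrays, 2, limits the precision.

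Homeobox probes were detected less widely than other probes. A probe was kept for comparison when both arrays showed it well above background in 1 channel or more, which held for 62 of the 109 homeobox probes (56.9%), against 65.1% of all probes and 84.5% of the 10192 other probes with a gene symbol. The HOX clusters kept 3 of 24 probes (12.5%) and the other homeobox probes 59 of 85 (69.4%). The share outside the clusters was thus above that of all probes but below that of other probes with a gene symbol. The female trained pool showed 60 of the 109 homeobox probes and the male trained pool 56, against 63 in the female dark-reared and 66 in the male dark-reared pool. Both trained pools thus lay below the dark-reared ones, as they did over the whole array. In all, 56 probes were detected in all 4 pools, 11 in some and 42 in none. The kept probes of HOXB3, SIX6, HIPK1, LMX1B, SIX2 and TLX1 were detected in only some pools.

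**Figure D1:**
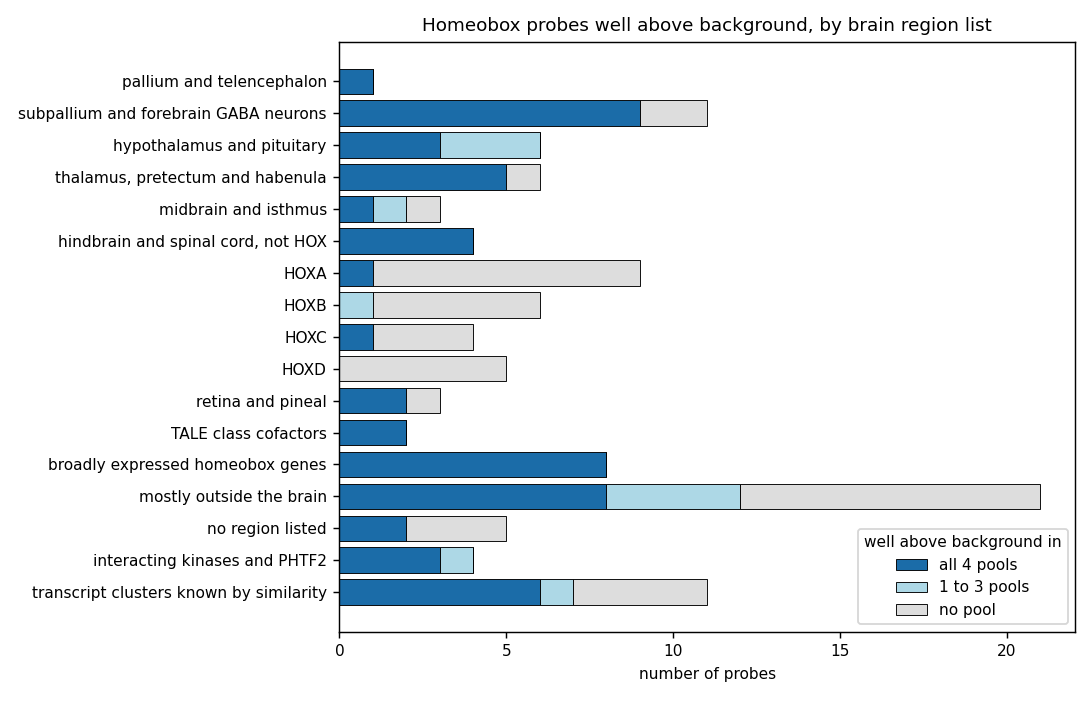
Number of homeobox probes (horizontal axis) detected in all 4 pools, in 1 to 3 pools or in no pool, for each brain region list (vertical axis), with the HOX clusters shown apart. Only 3 of 24 HOX probes were kept for comparison, whereas all 4 probes of other hindbrain and spinal cord genes were detected in all 4 pools.

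Few HOX probes gave a signal above background. Of 24 probes for 22 HOX genes, 3 were kept (12.5%), against 59 of the 85 homeobox probes outside the clusters (69.4%). The kept probes were those of HOXA6, HOXB3 and HOXC6, each a gene that in vertebrates marks the caudal hindbrain or the spinal cord. HOXB3 and HOXC6 each had another probe that was detected in no pool. By cluster, 1 of 9 HOXA, 1 of 6 HOXB, 1 of 4 HOXC and 0 of 5 HOXD probes were kept. The 9 HOXA probes lie on chromosome 2 between 31762248 and 31854442 and the 5 HOXD probes on chromosome 7 between 17072513 and 17113360 in galGal2, the build of the array design. On chromosome 1 of that build the kept HOXC6 probe lies from 102564341 to 102564400, far from the HOXC8 probe at 87933373 to 87933432. The name of this HOXC6 probe comes from the array alone. For the 21 HOX probes detected in no pool, the highest signals above local background were read in intensity units. They were 4.02 and 2.89 in the female and male trained pools, and 13.7 and 7.72 in the female and male dark-reared pools. These units are not normalized between the dyes, so they do not compare the conditions. Median normalized log2 signals of the 21 probes were 5.82 and 5.88 in the female and male trained pools. In the female and male dark-reared pools they were 5.88 and 5.89.

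Genes of the rostral brain were detected far more often than HOX genes. Across the 4 forebrain lists (pallium, subpallium, hypothalamus with pituitary, and thalamus with pretectum and habenula), 19 of 24 probes were kept (79.2%). This share lay between the 65.1% of all probes and the 84.5% of other probes with a gene symbol. The pallial list held 1 probe, LHX2, which was kept. The subpallial list kept 9 of 11 probes, among them DLX1, DLX5, DLX6, LHX8, NKX6-2, SIX3 and VAX1, and missed DLX3 and 1 of 3 ZFHX4 probes. Thalamic and pretectal genes kept 5 of 6 probes, with IRX4 detected in no pool. Of 3 midbrain probes, LMX1B and DMBX1 were kept and PITX3, a factor of dopamine neurons, was detected in no pool. The hindbrain and spinal genes outside the HOX clusters, LHX1, MNX1, NKX6-1 and TLX3, were detected in all 4 pools.

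The remaining lists kept 2 of 3 retinal and pineal probes, both TALE class cofactor probes and 6 of 11 transcript cluster probes. The list of broad zinc finger and other homeobox genes, labelled broadly expressed in the figures, kept all 8 probes. Genes known mostly outside the brain kept 10 of 21 probes. On this list 8 probes were detected in all 4 pools, among them MIXL1, MEOX2, MSX2 and PRRX1. Another 9 were detected in no pool, among them CDX2, CDX4, MEOX1, NKX2-5, NKX2-6 and NOTO. Several dim genes were detected in dark-reared pools only, although their normalized signals were not all higher there. RAX, an eye and hypothalamus factor, was detected in the female dark-reared pool alone, and LHX3, of pituitary and motor neurons, in the male dark-reared pool alone. SIX2 and TLX1 were detected in both dark-reared pools and in neither trained pool. Mean normalized log2 signals were 6.06 in trained and 6.01 in dark-reared pools for LHX3, and 6.03 and 6.01 for TLX1. For RAX they were 5.99 and 6.02, and for SIX2 6.04 and 6.08. Trained values of these genes were not well above background. For SIX2 the bound was only its observed ratio, 1.02-fold brighter in the dark-reared pools, since its trained values lay above the dimmest detected probes. It was not called (mean log2 ratio -0.032, adjusted p 0.719 in limma). No fold is given for RAX, LHX3 or TLX1.

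Training was tested with limma over the ratios of both arrays, with the sexes as replicates and Benjamini-Hochberg adjustment over 27372 kept probes. Of the 62 kept homeobox probes, 5 passed an adjusted p of 0.05 with a higher and 5 with a lower signal after training. Of all kept probes 17.5% passed the same test, 6.31% higher and 11.2% lower, and the share among homeobox probes was 16.1%, near that background, with 8.06% in each direction. The higher ones were ZHX2, HOPX, DLX5, HIPK2 and LOC422976, and the lower ones were LHX8, NKX6-2, MEOX2, LHX2 and the transcript cluster TC202100. The median ratio over homeobox probes was 0.0098, against -0.012 over all kept probes, and the median size without regard to sign was 0.088, against 0.093. The called homeobox probes had a median size of 0.29, against 0.30 for all called probes.

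These calls depended on the background offset, the signal and the normalization used. When the normexp offset was 16 rather than 50, 1 homeobox probe was higher and 0 were lower, against 306 and 628 of all kept probes. The ratios of the calls that were lost stayed about as large (0.34 for DLX5, -0.34 for LHX8 and 0.32 for HIPK2). With the scanner software's processed signals 0 passed in either direction, among homeobox probes and among all kept probes. An unadjusted p under 0.05 in limma was then found for 15 of 62 homeobox probes and 4878 of all 27372. With median centring of the kept probes in place of loess, 27 were higher and 14 lower, against 10128 and 9798 of all 27372 kept probes. Most kept probes of the array were thus called in that setting, so such a call does not set a homeobox probe apart. DLX5, HIPK2 and LOC422976 then had means below 0, and calls appeared among hypothalamic, thalamic, hindbrain, retinal and TALE class genes. Among the homeobox probes named by rule, median centring moved dim spots up and bright spots down. TLX3, at log2 signals of 6.07 to 6.26, moved from -0.14 to 0.32. IRX1, at 7.30 to 7.57, moved little (-0.13 to -0.15). DLX6, at 10.17 to 10.40, moved from -0.068 to -0.42. The region of such a call thus cannot be told apart from its spot signal, and the reason was not tested.

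The ratios were small and mostly of the same sign in the 2 sexes. None of the 62 probes reached 1.5-fold on either array, where 0.321% of all kept probes were at least 1.5-fold higher and 0.643% lower in females, and 0.34% and 0.957% in males. At a log2 ratio of 0.32 or more in size, 3 homeobox probes passed on the female array (4.84%, against 8.71% of all kept probes) and 4 on the male array (6.45%, against 10.1%). On both arrays 25 probes were above 0 and 20 below 0, and 17 had opposite signs (27.4%, against 28.1% of all kept probes). Of these, 0 had both ratios past 0.32 in size (0%, against 0.117%) and 1 had both past 1.1-fold (1.61%, against 1.22%). The signal above background was under the offset of 50 in at least 1 pool for 31 of the 62 probes (50%, against 45% of all kept probes). The offset compresses the ratios of such probes towards 0. Among the 10 called probes this held for 1, ZHX2.

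**Figure D2:**
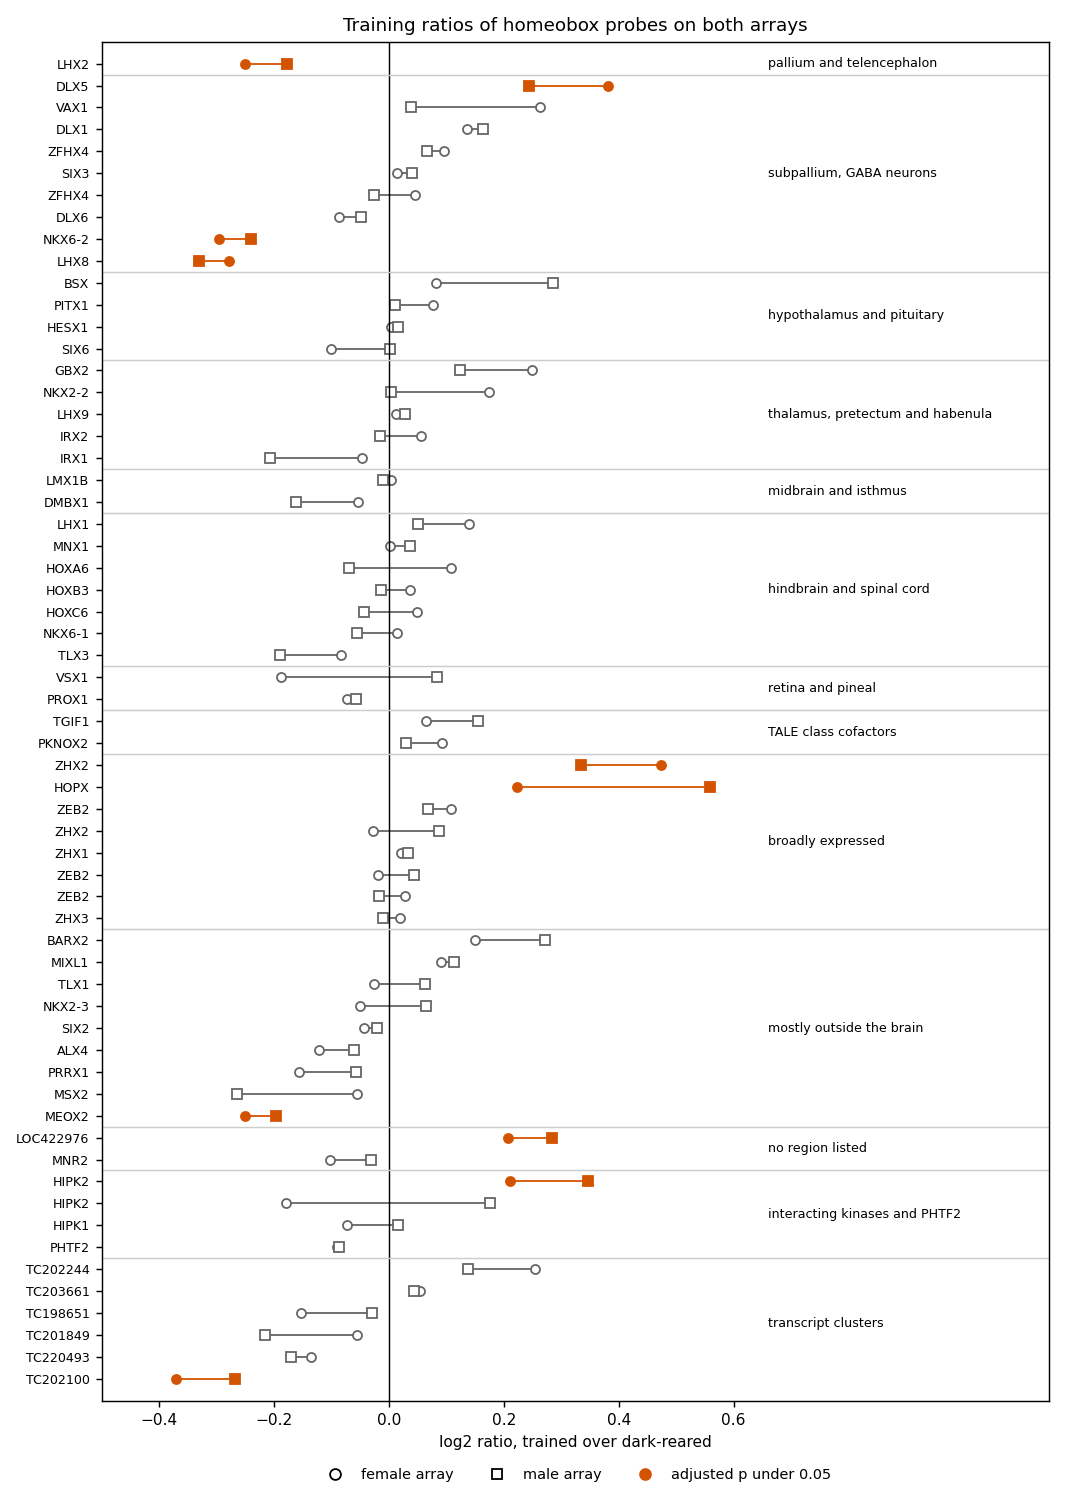
Log2 ratio of trained over dark-reared (horizontal axis) of kept homeobox probes (vertical axis, grouped by region list), with circles for the female and squares for the male array and filled orange symbols for an adjusted p under 0.05 in limma. The called probes span means of -0.32 to 0.40, and the hypothalamic, thalamic, midbrain and hindbrain groups hold none with loess normalization.

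With loess normalization, subpallial factors split in direction. DLX5, which promotes the GABA neuron fate, had normalized log2 signals of 11.08 and 10.98 in the female and male trained pools, against 10.70 and 10.74 in the female and male dark-reared pools. Both trained pools lay above both dark-reared pools. The mean log2 ratio was 0.31 ± 0.097 (SD, n = 2 arrays), a 1.24-fold rise with an adjusted p of 0.0218 in limma. With median centring the DLX5 mean was -0.079, without a call. In that setting LHX8 and NKX6-2 were still called lower (-0.39 and -0.54), so the split was not seen there. The DLX5 probe lies on chromosome 2 from 23747354 to 23747413. In whole-brain RNA, more cells of a type and more transcript per cell cannot be told apart.

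DLX6, the neighbour of DLX5 with which it shares forebrain enhancers in mammals, was not called. It had 10.31 and 10.17 in the female and male trained pools, against 10.40 and 10.22 in the female and male dark-reared pools, with a mean ratio of -0.068 and an adjusted p of 0.433 in limma, although it was called lower with median centring (-0.42). Its pools of the 2 conditions overlapped. The 2 probes are separated by 2361 bases on chromosome 2, and the DLX5 ratio exceeded the DLX6 ratio by 0.47 in females and 0.29 in males, a difference that was not tested. DLX1, another GABA neuron factor, had 6.53 and 6.54 in the female and male trained pools, against 6.40 and 6.38 in the female and male dark-reared pools, and a mean ratio of 0.15 did not pass (adjusted p 0.108 in limma).

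LHX8, a LIM factor needed for cholinergic neurons of the basal forebrain, had 7.67 and 7.54 in the female and male trained pools, against 7.94 and 7.87 in the female and male dark-reared pools. All trained values lay below the dark-reared ones. Its mean log2 ratio was -0.30 (SD 0.037, n = 2 arrays), with an adjusted p of 0.0179 in limma, and its probe lies on chromosome 8 from 29882058 to 29882117. NKX6-2, a repressor in ventral progenitors and in maturing oligodendrocytes, had 9.21 and 9.00 in the female and male trained pools, against 9.51 and 9.24 in the female and male dark-reared pools. The lower dark-reared pool, from males, was just above the higher trained pool, from females. Its mean ratio was -0.27 (SD 0.040, n = 2 arrays, adjusted p 0.0249 in limma), at chromosome 6 from 33771310 to 33771369.

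Because NKX6-2 is expressed in oligodendrocytes of birds and mammals as well as in neural progenitors, myelin markers were set beside it. Of 8 such markers kept of 8 on the array, TF and CNP were higher and MBP and ASPA lower in trained chicks, with mean ratios of 0.31, 0.26, -0.62 and -0.44. The other 4 had no call, with means from 0.0081 for OLIG2 to 0.22 for UGT8. The median ratio of the list was 0.14 (0.18 in females, 0.056 in males). The summed linear signal of the list was 49810 in the female and 38520 in the male trained pool. In the dark-reared pools it was 57100 in females and 55370 in males. The sum was thus lower in trained pools although the median ratio was positive, so the list did not move in 1 direction. The part of these markers in the NKX6-2 result was not tested.

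The other subpallial genes did not pass with loess normalization. VAX1, a factor of the ventral forebrain and optic stalk, had the next largest mean, 0.15, but its ratio was 0.26 in females and 0.038 in males (adjusted p 0.196 in limma). SIX3, which represses posterior identity in the anterior forebrain, had a mean of 0.027, and the 2 kept probes of ZFHX4, a large zinc finger homeodomain factor, had means of 0.0098 and 0.081.

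**Figure D3:**
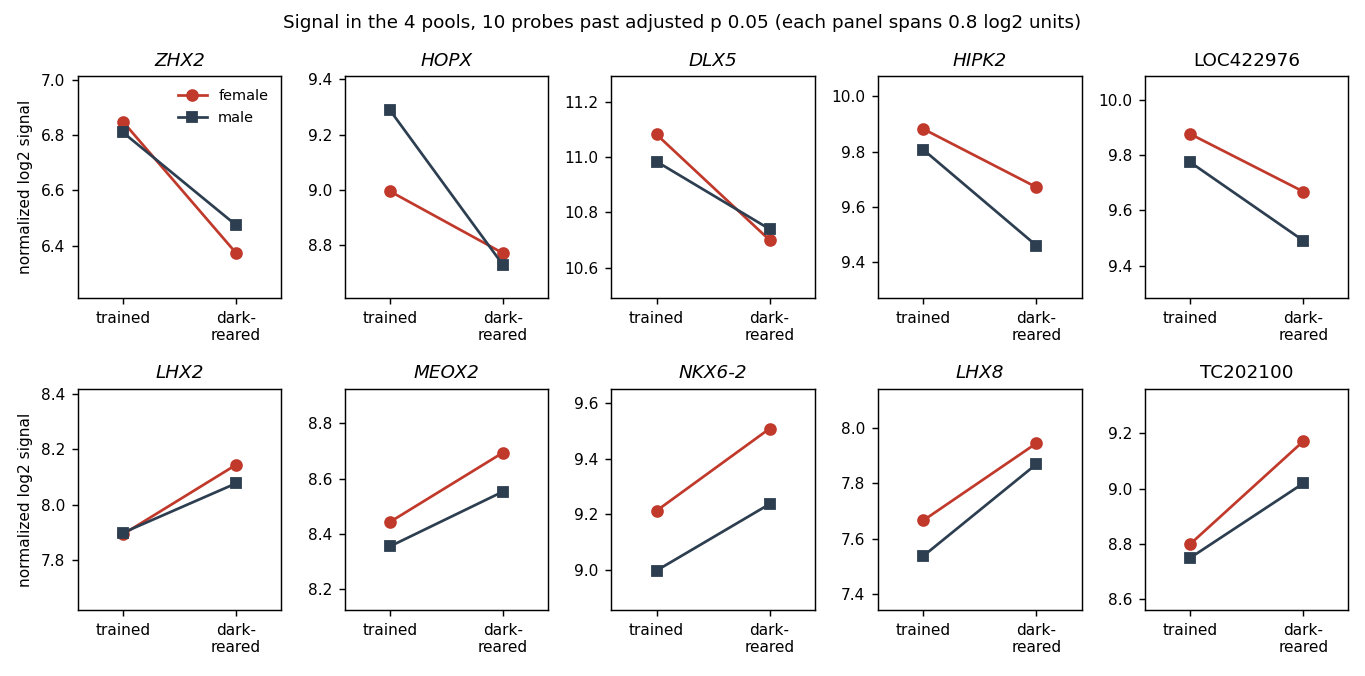
Normalized log2 signal (vertical axis) in trained and dark-reared pools (horizontal axis) of the 10 called homeobox probes, with red circles for females and dark squares for males, each panel spanning 0.8 log2 units. In each panel both trained pools lie on the same side of both dark-reared pools, and HOPX shows the widest gap between the sexes, with trained values of 9.00 in females and 9.29 in males.

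LHX2, which keeps pallial progenitors in a cortical rather than a hem fate in mice, was the sole pallial probe. It had 7.89 and 7.90 in the female and male trained pools, against 8.14 and 8.08 in the female and male dark-reared pools. The trained values were nearly equal and lay below both dark-reared values. Its ratio averaged -0.21 (SD 0.051, n = 2 arrays) with an adjusted p of 0.046 in limma, which became 0.0656 when the prior variance was allowed to follow intensity. The probe lies on chromosome 17 from 1189187 to 1189246.

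Hypothalamic and pituitary genes gave no call with loess normalization. BSX, a factor of feeding neurons of the mouse hypothalamus, had 7.20 and 7.34 in the female and male trained pools, against 7.12 and 7.05 in the female and male dark-reared pools (mean 0.18 ± 0.14, SD, n = 2 arrays, adjusted p 0.116 in limma). Both trained values were above both dark-reared values, mostly through the male array. PITX1 and HESX1, both pituitary factors, had means of 0.043 and 0.0098. With median centring all 3 were called higher, at 0.23 for BSX, 0.43 for PITX1 and 0.38 for HESX1 (adjusted p 0.0191, 0.000276 and 0.000635 in limma). Of 7 pituitary hormone markers on the array 1, POMC, was kept, and PRL, GH, TSHB, FSHB, CGA and GHRHR were not.

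Thalamic, midbrain and hindbrain genes also gave no call in limma's test with loess normalization. GBX2, which specifies thalamic neurons and the anterior hindbrain, came nearest, with 6.33 and 6.25 in the female and male trained pools, against 6.08 and 6.12 in the female and male dark-reared pools. Its mean was 0.19 ± 0.089 (SD, n = 2 arrays, adjusted p 0.0799 in limma), and the pools of the 2 conditions did not overlap. With median centring it was called, at 0.62. NKX2-2, a ventral factor of the neural tube and of prethalamic territory, had a mean of 0.089 that came from females (0.17) far more than males (0.0040), and it was called lower with median centring (-0.19). IRX1, of the Iroquois group that sets the thalamic field, had a mean of -0.13 and the midbrain factor DMBX1 one of -0.11, which was 0.053 with median centring. LHX9, a marker of thalamic neurons, gave 0.021.

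In the hindbrain and spinal cord list, TLX3, a selector of glutamatergic over GABA spinal neurons in mice, had the most negative mean (-0.14, adjusted p 0.156 in limma), which was 0.32 and called with median centring. LHX1, of Purkinje cells and spinal interneurons, had a mean of 0.095 (0.51 and called with median centring) and NKX6-1 one of -0.021. The kept HOX probes gave means of 0.019 for HOXA6, 0.011 for HOXB3 and 0.0024 for HOXC6, each with opposite signs on the 2 arrays. With median centring all 3 were called higher, with means of 0.42, 0.52 and 0.25. HOXA6 had 6.36 and 6.16 in the female and male trained pools, against 6.26 and 6.23 in the female and male dark-reared pools, so that the pools of the 2 conditions were interleaved.

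Among retinal and pineal genes, PROX1, which also marks dentate granule cells in mammals, had a mean of -0.066, and VSX1, of retinal bipolar cells, had ratios of -0.19 in females and 0.083 in males. Neither was called, but PROX1 was with median centring (-0.32). The TALE class cofactors TGIF1, a repressor of retinoid and TGF-beta signalling, and PKNOX2, a partner of PBX proteins, had means of 0.11 and 0.061 without a call, and TGIF1 was called with median centring (0.27).

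The 2 largest called means were those of ZHX2 and HOPX, both on the list of broad zinc finger and other homeobox genes. ZHX2, a zinc finger and homeodomain repressor, had 6.85 and 6.81 in the female and male trained pools, against 6.37 and 6.48 in the female and male dark-reared pools, with a mean of 0.40 ± 0.099 (SD, n = 2 arrays), 1.32-fold, and an adjusted p of 0.0128 in limma. The trained values stood clear of the dark-reared values in both sexes, and this was the single homeobox call left with an offset of 16 (adjusted p 0.0490 in limma). A further ZHX2 probe on the same chromosome 2, at 145915847 to 145915906 against 145907626 to 145907685 for the called probe, had a mean of 0.030 and an adjusted p of 0.767. The call thus rests on 1 of 2 probes.

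HOPX, an atypical homeodomain protein that does not bind DNA and marks astrocyte lineage progenitors in mammals, had 9.00 and 9.29 in the female and male trained pools, against 8.77 and 8.73 in the female and male dark-reared pools. The male trained pool stood well above the other 3. Its mean ratio was 0.39 ± 0.24 (SD, n = 2 arrays), 1.31-fold, with an adjusted p of 0.0314 in limma, and 0.15 without a call with median centring. The probe lies on chromosome 4 from 49832670 to 49832729. The zinc finger homeodomain gene ZEB2, a regulator of interneuron migration and myelination in mice, had 3 probes with means of 0.0052, 0.012 and 0.088, and ZHX1 and ZHX3 had means of 0.027 and 0.0042. None of these passed with loess normalization, and the ZEB2 probe with the mean of 0.088 was called with median centring (0.53).

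Of the genes known mostly outside the brain, MEOX2, a mesoderm factor that in the brain is expressed in vascular cells, was called. It had 8.44 and 8.35 in the female and male trained pools, against 8.69 and 8.55 in the female and male dark-reared pools, and its mean was -0.22 (SD 0.037, n = 2 arrays, adjusted p 0.039 in limma), at chromosome 2 from 27334738 to 27334797. Both trained pools lay below both dark-reared pools. Of 15 endothelial and mural markers kept, VWF, SOX18, COL4A1 and CLDN5 were lower (mean ratios -0.71, -0.67, -0.45 and -0.23) and 0 were higher, against 11.2% lower and 6.31% higher over all kept probes. The others had no call, ANGPT2 and PECAM1 having means of 0.23 and 0.22, and the list median was -0.016. The summed linear signal of the list was 11680 in the female and 11380 in the male trained pool, against 13210 and 12890 in the female and male dark-reared pools, and their part in the MEOX2 result was not tested.

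BARX2, a factor of muscle and epithelia, missed the threshold with a mean of 0.21 (adjusted p 0.0566 in limma), passed at 0.0449 when dim probes were not filtered out, and averaged -0.00094 with median centring. It had 8.70 and 8.85 in the female and male trained pools, against 8.55 and 8.57 in the female and male dark-reared pools. PRRX1, a mesenchymal factor, had a mean of -0.11, and the craniofacial factor MSX2 one of -0.16, both without a call.

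The other calls concerned a gene of unsettled name, a kinase and a transcript cluster. The array describes LOC422976 as similar to DBX1, a factor of spinal and pallial boundary progenitors, whereas its gene number now carries the name LEUTX in RefSeq, so it was given no region. It had 9.88 and 9.77 in the female and male trained pools, against 9.67 and 9.49 in the female and male dark-reared pools, with a mean of 0.25 ± 0.053 (SD, n = 2 arrays, adjusted p 0.0327 in limma), at chromosome 5 from 1415729 to 1415788. The kinase HIPK2, a transcriptional corepressor of NK homeodomain proteins, had 9.88 and 9.81 in the female and male trained pools, against 9.67 and 9.46 in the female and male dark-reared pools, for a probe at chromosome 1 from 52833777 to 52833836 (mean 0.28 ± 0.096, SD, n = 2 arrays, adjusted p 0.029 in limma). Another HIPK2 probe, at 52811932 to 52811991, had ratios of -0.18 in females and 0.18 in males, so the HIPK2 probes did not give 1 answer. Neither PHTF2 (mean -0.089) nor the motor neuron factor MNR2 (mean -0.068) was called. With median centring PHTF2 was called lower (-0.34) and MNR2 averaged 0.14 without a call.

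The transcript cluster TC202100, described by a partial match to the H6 homeodomain protein, had 8.80 and 8.75 in the female and male trained pools, against 9.17 and 9.02 in the female and male dark-reared pools. It was lower in both trained pools, with a mean of -0.32 (SD 0.072, n = 2 arrays) and an adjusted p of 0.018 in limma, at chromosome 17 from 5558132 to 5558189. The other 5 kept transcript clusters had means of -0.15 to 0.20 and no call, the highest being TC202244 (adjusted p 0.0677 in limma), which was called with median centring (0.52).

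Homeobox genes of the same region lists that the rule does not take were also called in both directions. Of 32 such genes on the array, 25 were kept, with 2 higher and 3 lower in the same limma test and a median log2 ratio of -0.0075. Over all kept probes 6.31% were higher and 11.2% lower, and these short lists are given as counts beside that background. MEIS2, a TALE factor of the striatum, and ISL1 were higher (mean log2 ratios of 0.29 and 0.21), and the homeobox genes GBX1, TSHZ2 and HHEX lower (-0.43, -0.38 and -0.30). Of 20 kept regional transcription factors of other families, 0 were higher and 1, GATA3, was lower (-0.41).

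Of 17 kept cofactors and repressors of homeodomain proteins, 12 had no call, 2 were higher and 3 lower, with a median of -0.057, against 17.5% called among all kept probes. LMO4, a LIM-only protein that competes with LHX factors for their bridging cofactor, was higher with a mean ratio of 0.34 (adjusted p 0.0234 in limma), as was DACH2 with 0.28. DACH1, NCOR1 and EYA4, a transcriptional coactivator, were lower with means of -0.40, -0.34 and -0.22. Of 15 kept patterning signals and retinoid regulators, 0 were higher and 1 was lower, the retinoic acid receptor RARB (-0.65, adjusted p 0.00719 in limma).

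Among 21 kept transmitter and peptide genes of regional neurons 17 had no call. CRH and CALB2 were higher (0.46 and 0.21), and GAD1, the GABA synthesis enzyme, and PVALB were lower (-0.32 and -0.25). Markers of other tissues that whole brains could carry were mixed. Those called lower were FOXD1 of 9 meningeal, MYF6 of 7 muscle and CNGA3 of 6 pineal and retinal markers, with means of -0.29, -0.23 and -0.35. The rest of these lists had no call, and the list medians were -0.040, -0.073 and 0.074. Uncalled means above 0 included LUM (0.22), MYOD1 (0.18), AANAT (0.27) and RGR (0.79). The RGR ratio was 1.60 in males and -0.011 in females. Of 3 blood markers HBBA was higher and EPB42 lower (0.41 and -0.27), and of 5 choroid plexus markers PRLR was higher and TEKT1 lower (0.32 and -0.26), while the choroid plexus carrier TTR was not kept. Their part in the homeobox results was not tested.

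The sexes were compared within each condition as female minus male, without a test, since each sex and condition had a single pool. The 2 conditions of a sex share an array and its spots, so that a difference seen in both is not seen independently. None of the 62 homeobox probes reached a 1.5-fold difference in either condition. Of kept probes not on chromosome Z, 0.0895% were at least 1.5-fold higher in females in both conditions, 0.392% in males, and 1.21% differed that much in at least 1 condition. At a difference of 0.32 or more in both conditions the homeobox count was 0 each way, against 0.336% for females and 1.04% for males. At 1.1-fold or more in both conditions, 3 homeobox probes were higher in females (4.84%, against 3.55% of those kept probes) and 0 in males (0%, against 3.57%).

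Small differences leaned towards females. The female pool was above the male pool in both conditions for 27 probes (43.5%, against 32.4%), and the male pool above the female pool in both for 12 (19.4%, against 27.2%). Median differences were 0.040 in trained and 0.040 in dark-reared pools, against 0.0073 and 0.0028 over all kept probes.

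The probes past 1.1-fold in both conditions were those of NKX6-2, PRRX1 and DLX6. NKX6-2 differed by 0.22 in trained and 0.27 in dark-reared pools, PRRX1 by 0.16 and 0.26, and DLX6 by 0.14 and 0.18. NKX2-2 had 9.58 in female and 9.29 in male trained pools, and 9.40 in female and 9.29 in male dark-reared pools. The next largest differences towards females were those of 1 ZEB2 probe (0.16 in trained and 0.12 in dark-reared pools) and 1 HIPK2 probe (0.075 and 0.21). These ranks depended on the processing. With processed signals DLX6 (0.094 in trained and 0.068 in dark-reared pools) and PRRX1 (0.12 and 0.17) no longer passed 1.1-fold in both conditions. The ZEB2 probe (0.42 and 0.39) and NKX2-2 (0.32 and 0.17) then did, and NKX6-2 still did (0.23 and 0.26).

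Towards males, PROX1 had 9.01 in the female and 9.13 in the male trained pool, and 9.09 in the female and 9.19 in the male dark-reared pool, so it was lower in females in both conditions. HOPX was lower in females only in the trained pools (-0.29), with 0.042 in dark-reared pools. BARX2 differed by -0.15 and -0.024, HESX1 by -0.084 and -0.070 and TC202244 by -0.024 and -0.14 in trained and dark-reared pools. No difference reached the fold of 1.5, and without replicate pools of a sex their error is unknown.

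**Figure D4:**
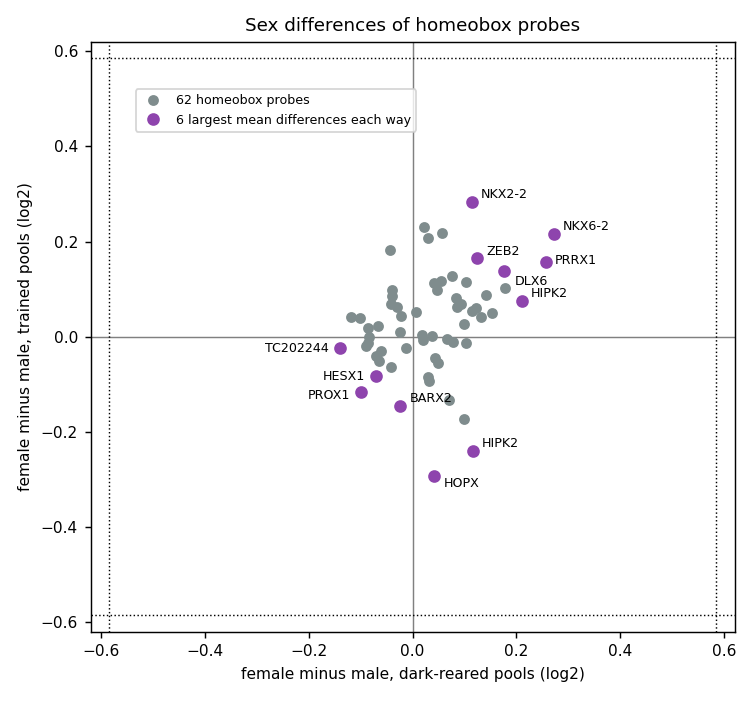
Female minus male difference in normalized log2 signal in trained pools (vertical axis) against that in dark-reared pools (horizontal axis) for the 62 kept homeobox probes, with the 6 largest mean differences each way in purple and dotted lines at 1.5-fold. All points lie inside the dotted lines, NKX6-2 farthest towards females (0.22 and 0.27) and HOPX lowest in trained pools (-0.29).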

How the data were processed

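A female and a male 2-colour Agilent array were read. The deposited scanner tables give mean spot and median background intensity per channel, and processed intensity that the software had detrended and dye-normalized, per the file headers. The log10 ratio the authors deposited has red on top, while their deposited series table holds log2 ratios equal to green over red processed signals within 0.001 for all 42034 probes, with medians of 0.0672 and 0.0823. The scanner software, Agilent Feature Extraction, is named as version 8.5.1.1 by the submitters' processing notes and as 9.5.3.1 by the file headers. Groups and dyes follow the labels' dye fields, since titles give the pools in the other order.

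Mean signals were background-corrected with normexp (offset 50) and loess-normalized within arrays in limma (version 3.58.1, R version 4.3.3), giving control spots a weight of 0. Outlier flags removed 25 probes, and 27372 were kept. The training test used lmFit and eBayes with 1 residual and 5.056 prior degrees of freedom. The p-values thus rest mainly on the spread between the 2 arrays pooled over all kept probes, and less on a probe's own spread. Sex differences are part of that spread. An exact permutation test of 2 pools against 2 that ignores their pairing on arrays cannot go below a two-sided p of 0.333. Keeping the pairing leaves fewer arrangements, so its floor is higher still. Channel values for single pools came from loess and Aquantile normalization. For a bound, a dim value counts as no lower than the dimmest detected probe of its channel and array. The steps were tested on simulated ratios with no dye effect and changes of 1.5-fold or more, larger than those of the homeobox calls.

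Probes were named through RefSeq accession, gene number or symbol in a table of assembly GRCg7b (10278 probes), and otherwise from the array's own description. The description was matched without regard to letter case, and 104 probes would remain if case had to match. Coordinates are those of galGal2, and positions within transcripts were not analysed here.

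The members, the region and marker lists and the tests were chosen with earlier results of these data known. Each other list uses the brightest kept probe of a gene. The oligodendrocyte and endothelial lists were added after the values were seen, and BSX was then moved to the hypothalamic list, where it belongs. Named are all called members, the 2 largest means of each region list among probes detected in all pools, kept HOX genes, genes whose probes differ in sign and the 6 largest sex differences each way, and of the other lists up to 3 called genes in each direction. DLX1, VAX1, SIX3, MSX2, LHX9, NKX6-1, ZHX1, ZHX3, ZFHX4 and CLDN5 were added after their values were seen. The result of 1 gene is not reported here. Alternatives changed the offset, the signal, the normalization, the filter, the moderation and the arrays used.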

Additional observations from a re-analysis of the deposited data

Results flagged for a closer look

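One probe had ratios of opposite sign in the sexes, each at least 1.1-fold, and this was 1 of 62 kept homeobox probes (1.61%, against 1.22% of all kept probes). For the HIPK2 probe on chromosome 1 from 52811932 to 52811991, the female ratio minus the male ratio was -0.36, and this difference was not tested. Its normalized log2 signal was 6.92 in the female and 7.16 in the male trained pool, against 7.10 in the female and 6.99 in the male dark-reared pool.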

How the results depend on the processing

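The main setting gave 5 homeobox probes higher and 5 lower, and 1726 and 3074 of all kept probes. Median centring gave 27 and 14 homeobox probes and 10128 and 9798 of all, an offset of 16 gave 1 and 0 and 306 and 628, and processed signals gave 0 and 0 and 0 and 0 in limma (15 homeobox probes and 4878 of all at an unadjusted p under 0.05). The median over homeobox probes, 0.0098, was 0.10 with median centring, 0.0065 without a filter, 0.021 with an offset of 16, -0.024 with processed signals and 0.011 for probes detected in both channels, and 0.0070 to 0.0081 on a single array. The probes listed next for median centring are those named by rule, and other homeobox probes also gained calls in that setting. Genes added after their values were seen are not covered. Median centring turned the sign of TLX3 (0.32), NKX2-2 (-0.19), LOC422976 (-0.062), the called HIPK2 probe (-0.029) and DLX5 (-0.079), and, uncalled in both settings, of DMBX1 (0.053), MNR2 (0.14), BARX2 (-0.00094) and the other HIPK2 probe (0.082). It made calls of HOXA6, HOXB3, HOXC6, HESX1, PITX1, BSX, GBX2, LHX1, TGIF1, TC202244, DLX6, PROX1, PHTF2 and 1 ZEB2 probe, without a change of sign. Of these, DLX6, PROX1 and PHTF2, which had the brightest spots, moved down and the dimmer ones moved up. The 10 called probes kept their sign with an intensity trend, without a filter, with an offset of 16, with processed signals and for probes detected in both channels, and 9, 10, 1, 0 and 10 of them still passed. Processed signals gave 0.72 for ZHX2, -0.38 for LHX2, -0.12 for NKX6-2 and -0.18 for TC202100. The sex count at 1.5-fold was 0 in each setting run. Of NKX6-2, PRRX1 and DLX6, only NKX6-2 stayed past 1.1-fold towards females in both conditions in each of those settings. The causes were not tested. Each ratio already pairs the pools of a sex within an array. No paired analysis was possible beyond that because each sex and condition had a single pool. A single array gives no test, so counts of calls were not run without an array. Signals near background limit the dim genes.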
